A study of Mus musculus with 6 samples.

Results

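H3K27ac, the acetylation of histone H3 that marks active promoters and enhancers, was mapped by ChIP-seq in mouse quadriceps, and the peaks described here are those whose nearest annotated gene is a mitogen-activated protein (MAP) kinase, a kinase above or below the MAP kinases, or a dual-specificity phosphatase (symbols beginning Mapk, Mapkapk, Map2k, Map3k, Map4k or Dusp and a number). They numbered 233 of the 46988 peaks listed for control mice and 207 of the 40721 listed for detrained mice, and lay nearest to 66 genes, each of which had a peak in both lists. Both groups were male C57BL/6J mice, 8 weeks old at the start and caged singly for 4 weeks. Control mice had no running wheel, and detrained mice had one and were harvested 72 h after their last running bout. Each H3K27ac sample was 1 quadriceps of 1 animal, with 2 samples and 1 input (sonicated chromatin without immunoprecipitation) per group. There were no mice taken directly after training among the samples used here, and the comparison is therefore between muscle that had never trained and muscle that had trained and rested.

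MAP kinases are switched on by a relay in which a MAP4K or another upstream signal acts on a MAP3K, the MAP3K phosphorylates a MAP2K, and the MAP2K phosphorylates the MAP kinase. The extracellular signal-regulated kinases (ERK) answer mainly to growth factors, whereas the Jun N-terminal kinases (JNK) and the p38 kinases answer mainly to stress and cytokines, and contraction of skeletal muscle activates all of them. Dual-specificity phosphatases of the MAP kinase phosphatase (MKP) type remove both activating phosphates, and several of their genes are themselves switched on by the kinases they turn off.

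The H3K27ac libraries held between 20805019 and 22400894 tags, the control input 10812470 and the detrained input 21298438. Density is given throughout as tags per kb of called peak per 10000000 tags of the library, and a gene's total as tags per 10000000 summed over its peaks. The 2 control values always precede the 2 detrained values, in the order of the deposited columns. The muscle fibre markers Acta1, Ckm, Myh4, Actn3, Myl1 and Pvalb had peaks in both lists, whereas Tnnt3, the remaining fibre marker, was nearest to none. All 5 endothelial markers and all 3 markers of fibroblasts and adipogenic progenitors had peaks too, the adipocyte markers Adipoq and Plin1 had none, and leukocyte markers with a peak numbered 2 of 4 in control and 3 of 4 in detrained muscle. The leukocyte markers summed to 161 and 126 tags in control muscle and 258 and 213 in detrained muscle, and the endothelial markers to 2226 and 2615 against 2899 and 2290. The markers of fibroblasts and adipogenic progenitors summed to 1578 and 1557 tags over 40.4 kb in control and 1838 and 1913 over 45.9 kb in detrained muscle. The satellite cell markers Pax7 and Myf5 summed to 179 and 173 against 227 and 246, and the smooth muscle marker Myh11 to 99.3 and 103 against 157 in each. The leukocyte, progenitor, satellite cell and smooth muscle sums were thus higher in both detrained libraries, over more called sequence in each case, and the endothelial sums overlapped. The part of these cells in the results below was not tested. In a whole muscle, fewer cells of a type and less acetylation per cell cannot be told apart.

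Member peaks were slightly denser and longer than peaks at large. Their median density was 31.1 tags per kb in control mice, against 27.5 over all peaks, and 32.8 against 30.1 in detrained mice. Their median length was 1759 bp against 1568 bp in control and 1927 bp against 1798 bp in detrained mice. Signal over input did not set them apart by much, with a median log2 difference of 2.32 against 2.25 in control and 2.31 against 2.20 in detrained muscle. Most were not promoters: in control mice 134 lay in introns, 67 between genes and 22 at promoters, and in detrained mice 107, 58 and 26. In control mice promoter peaks were the densest, with a median of 73.3 tags per kb against 30.3 for intronic and 27.6 for intergenic member peaks. In detrained mice the median was 61.6 at promoters and 64.2 in exons and UTRs. A peak centred within 1 kb of a start site was listed for 46 of the 66 genes in control and 45 in detrained mice. Of the 77 family symbols in RefSeq, the 11 nearest to no listed peak were Dusp15, Dusp16, Dusp21, Map3k13, Map3k15, Map3k19, Map3k21, Mapk10, Mapk15, Mapk1ip1 and Mapk8ip2.

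The start-site sequences of 4 of the genes are shown because short motifs of factors that MAP kinase signalling or the muscle program acts on fall in them, inside an H3K27ac peak of both groups. Each runs from 250 bases before to 50 bases after the RefSeq start on GRCm38.p6 (mm10), 5′ to 3′ on the gene's strand, and capitals mark the motif matches. Dusp1 lies at chr17:26508423-26508722 on the minus strand, Dusp8 at chr7:142095235-142095534 on the minus strand, Dusp27 at chr1:166127849-166128148 on the minus strand and the first Map2k6 start at chr11:110398852-110399151 on the plus strand.
Dusp1 promoter: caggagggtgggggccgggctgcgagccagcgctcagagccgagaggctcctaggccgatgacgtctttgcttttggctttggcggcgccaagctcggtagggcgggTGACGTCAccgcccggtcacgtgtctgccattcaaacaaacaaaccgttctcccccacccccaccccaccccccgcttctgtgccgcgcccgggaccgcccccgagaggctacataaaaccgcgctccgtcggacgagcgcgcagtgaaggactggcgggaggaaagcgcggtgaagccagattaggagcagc
Dusp8 promoter: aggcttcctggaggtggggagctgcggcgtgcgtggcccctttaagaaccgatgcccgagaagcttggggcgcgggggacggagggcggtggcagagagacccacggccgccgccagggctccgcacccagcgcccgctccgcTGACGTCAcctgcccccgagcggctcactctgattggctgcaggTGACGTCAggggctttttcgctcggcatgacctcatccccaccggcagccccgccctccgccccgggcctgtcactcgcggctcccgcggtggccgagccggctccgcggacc
Dusp27 promoter: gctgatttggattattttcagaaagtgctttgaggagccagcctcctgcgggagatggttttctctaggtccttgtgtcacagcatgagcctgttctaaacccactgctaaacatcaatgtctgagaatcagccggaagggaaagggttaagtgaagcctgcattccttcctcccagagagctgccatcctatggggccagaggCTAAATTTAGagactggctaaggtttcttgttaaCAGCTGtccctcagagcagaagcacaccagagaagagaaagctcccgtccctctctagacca
Map2k6 promoter: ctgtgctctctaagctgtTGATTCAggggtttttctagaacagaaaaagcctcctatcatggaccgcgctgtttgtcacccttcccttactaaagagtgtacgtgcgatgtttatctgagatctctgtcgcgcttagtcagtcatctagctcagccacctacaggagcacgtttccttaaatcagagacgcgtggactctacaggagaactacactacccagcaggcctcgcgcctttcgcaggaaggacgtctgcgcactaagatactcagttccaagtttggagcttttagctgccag
The Dusp1 window holds 1 cAMP-response element (TGACGTCA, the binding sequence of CREB and ATF factors) and the Dusp8 window holds 2. This element was found on either strand in 3 of the 75 promoter windows of the family, the third being Mapk10, and in 1.79% of all 32851 windows. The Dusp27 window holds a MEF2 site and, closer to the start, the E-box CAGCTG that myogenic factors bind; the E-box occurred in 14 of the 75 family windows and 16.3% of all, and MEF2 sites in 2 of 75 and 3.19%. The Map2k6 window holds TGATTCA, a match to the pattern searched for AP-1, the Fos and Jun factors (TGANTCA, with any base in the middle). This pattern was found in 4 of 75 family windows, those of Dusp13, Map2k6, Map2k7 and Map3k10, and in 7.81% of all. Serum response (CArG) boxes, the other motif searched, were in 1 family window, that of Dusp5, and 1.63% of all. These matches describe the letters only and show no binding.

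Of all members, 2 MKP genes carried the most H3K27ac tags. Dusp1, which encodes the nuclear phosphatase MKP-1 of p38, JNK and ERK, ranked 45 of 14784 genes by summed tags in control mice and 38 of 14382 in detrained mice. Its 8 control peaks covered 46.2 kb and summed to 3287 and 3526 tags, and its 6 detrained peaks covered 43.6 kb and summed to 3792 and 3219. The control values lie inside the range of the detrained values, so the group totals overlap. Dusp10, which encodes MKP-5, a phosphatase of p38 and JNK, summed to 2780 and 3134 tags over 11 control peaks and 55.2 kb. In detrained mice it summed to 2345 and 2490 tags over 13 peaks and 46.7 kb, below both control values, whereas its densities over that sequence overlapped, at 50.3 and 56.7 against 50.2 and 53.3 tags per kb. Dusp7, an ERK phosphatase, came next among the MKP genes with 904 and 1013 against 1076 and 939 tags, which overlap.

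Among the atypical phosphatases, small enzymes without the kinase-binding domain of the MKPs, Dusp3 led with 591 and 665 against 582 and 467 tags. Dusp22, which acts on JNK signalling, had 545 and 522 tags over 8 control peaks and 458 and 405 over 4 detrained peaks. Dusp18 had 402 and 468 tags against 93.6 and 73.1. Detrained values lay below control values in all 3 genes, but the Dusp18 control total includes a 5814-bp peak 8.43 kb downstream of its start, with 360.4 pooled tags, that overlapped a 14492-bp detrained peak that was assigned to Slc35e4.

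Of the kinases, Map2k6 and Map3k20 stood highest. Map2k6, the kinase MKK6 that activates p38, had the most control peaks of any member, 21 over 54.9 kb with 2254 and 2625 tags, and 15 over 51.5 kb with 2313 and 2354 tags in detrained mice. Map3k20 encodes the MAP3K named ZAK. Map3k20 had 13 peaks with 2057 and 2481 tags in control and 18 with 2222 and 2009 tags in detrained mice. Both totals overlap between groups, and the ranks were 131 and 131 for Map2k6 and 158 and 170 for Map3k20.

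Among MAP3Ks, Map3k14, a kinase of the non-canonical NF-κB pathway, had 961 and 924 against 833 and 878 tags, and Map3k1 had 569 and 613 against 630 and 540. Among MAP2Ks, Map2k3, the other p38 activator, had 794 and 930 against 953 and 872 tags. Map2k5, which activates the ERK5 kinase encoded by Mapk7, had 659 and 710 tags over 15.7 kb against 562 and 517 over 10.6 kb. Map3k14 and Map2k5 were below both control libraries in both detrained libraries, and Map3k1 and Map2k3 overlapped.

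The MAP4Ks were modest. Map4k3 went from 577 and 661 tags over 16.3 kb in control to 926 and 760 over 24.5 kb in detrained mice, a pair wholly above the control one, with overlapping densities of 35.4 and 40.5 against 37.8 and 31.0 tags per kb. Map4k4 went the other way, with 431 and 461 tags over 9 peaks against 355 and 346 over 5. Map4k5 had 223 and 200 tags in its single control peak and 24.8 and 17.3 in its single detrained peak, because the detrained peak that pairs with the control promoter peak was assigned to the neighbouring gene Atl1.

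Of the MAP kinases themselves, Mapk14 carried the most tags. Mapk14, which encodes p38α, had 1024 and 1132 tags over 21.8 kb in control mice and 848 and 856 over 17.7 kb in detrained mice. Mapk12, which encodes p38γ, the form abundant in skeletal muscle, had 451 and 536 tags in 1 control peak and 442 and 418 in 1 detrained peak. In both genes the detrained libraries were the lower pair, and the third p38 gene, Mapk13, had 152 and 186 against 134 and 145.

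Among ERK genes, Mapk6, which encodes the atypical kinase ERK3, led with 549 and 574 against 567 and 549 tags. Mapk3 (ERK1) had 240 and 260 against 244 and 210. Both overlapped between groups. Of the JNK genes, Mapk8 had 170 and 186 against 200 and 173 tags, and Mapk9 had 103 and 99.7 against 81.5 and 64.1, the detrained pair being lower.

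The kinases downstream of p38 were led by Mapkapk2, which encodes MK2, with 1506 and 1693 tags over 34.2 kb in control mice. It had 1153 and 1120 tags over 21.7 kb in detrained mice, below both control values. Mapkapk3 had 642 and 693 against 696 and 660 tags, and Mapkapk5 had 250 in each control library against 214 and 213. The scaffolds were low: Mapk8ip3 (JIP3) had 134 and 141 against 129 and 123 tags, Mapk1ip1l 123 and 121 against 115 and 90.8, and Mapk8ip1 (JIP1) 29.4 and 26.8 against 35.5 and 30.5. The symbols Map3k7cl and Map2k3os, which meet the rule by name without encoding a kinase, had 58.1 and 57.6 against 93.4 and 76.5 tags and 52.8 and 54.8 against 34.3 and 43.8. A gene's total moves with how much of its region was called, so these differences in tags need not be differences in density. Over all its called sequence Mapkapk2 had 44.0 and 49.5 tags per kb in control against 53.1 and 51.6 in detrained mice, the opposite order to its tags. Over the 66 genes, summed tags were wholly lower in detrained mice in 32 and wholly higher in 13, where 35.2% and 24.3% of all 13524 genes with a peak in both lists did so. Of the 32, density over the called sequence was wholly lower in 9, overlapped in 12 and was wholly higher in 11, among them Map2k5, Map4k4, Mapk9, Dusp3, Dusp22, Mapk8ip3 and Mapk1ip1l. These are 28.1%, 37.5% and 34.4%, near the 27.8%, 36.6% and 35.6% of all genes with wholly lower tags. Of the 13, density was wholly higher in 2, overlapped in 6 and was wholly lower in 5. Among all genes with wholly higher tags the shares were 25.1%, 38.8% and 36.0%. Each list had a Mapkapk5 peak that the other lacked, and its 1 paired peak held 113 and 115 against 109 and 107 tags per kb, a log2 ratio of -0.08.

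**Figure D1:**
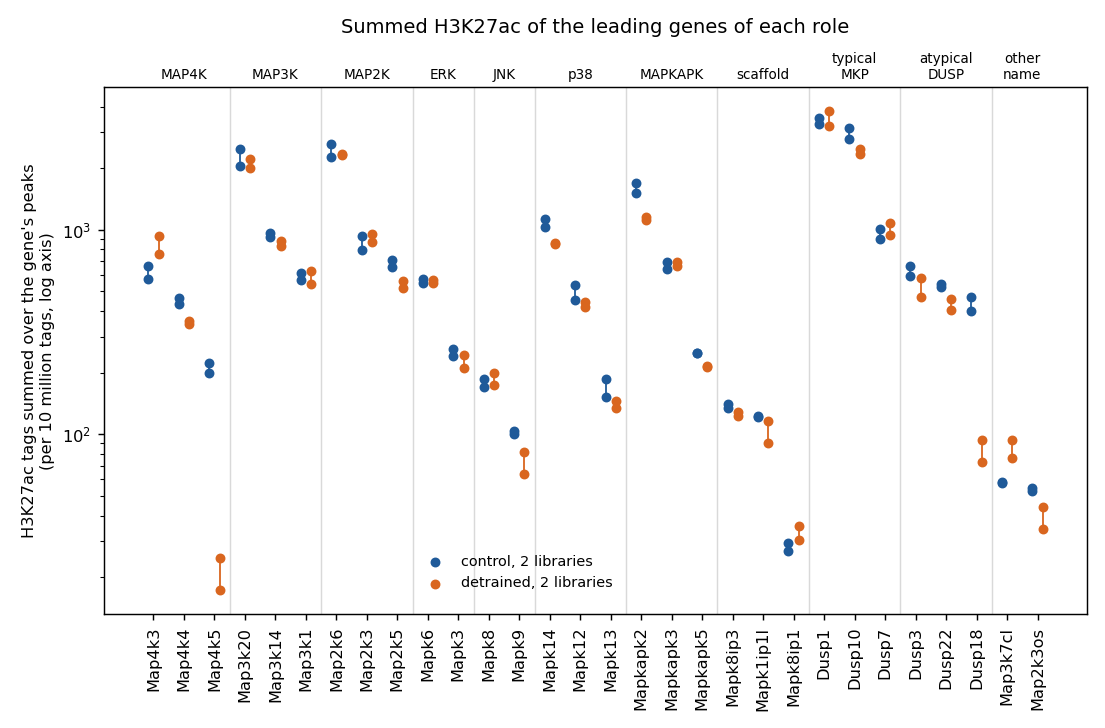
H3K27ac tags summed over the peaks of up to 3 leading genes of each role (vertical log axis, per 10000000 tags), with 1 point per library and a line joining the 2 libraries of a group. Dusp1, Dusp10, Map2k6 and Map3k20 stand highest; the low detrained points of Map4k5 and Dusp18 go with peaks assigned to neighbouring genes.

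The 4 leading genes differed in how their peaks lay. Around Dusp1, a 12898-bp control peak on the promoter (chr17:26502322-26515220) held 114 and 122 tags per kb, against 125 and 103 in a 13983-bp detrained peak. That promoter peak was at percentile 99 of density in control and 98 in detrained mice and its group values overlapped. Of its 3 paired flanking peaks, 2 were denser in both detrained libraries than in either control library, at 73.2 and 86.9 against 103 and 91.8 tags per kb for the peak 18.5 kb downstream and 59.9 and 51.1 against 68.4 and 60.6 for the peak 23.7 kb upstream. These were log2 ratios of 0.29 and 0.22, and per peak rather than per kb the first was -0.07, because that peak was called at 12494 bp in control but 9771 bp in detrained mice. The third, 42.4 kb downstream, overlapped between groups at 40.6 and 51.1 against 56.9 and 43.5. A control peak 10.7 kb downstream, with 37.5 and 30.1 tags per kb over 1806 bp, met a detrained peak of 5298 bp with 32.0 and 25.7 and was too unlike it in length to be paired, and 3 further control peaks had no detrained counterpart.

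Dusp10 had a cluster at its start and a second cluster more than 200 kb downstream, in intergenic sequence. The largest peak of the far cluster, 209 kb from the start site (chr1:184239479-184247191), held 85.9 and 104 tags per kb in control and 63.5 and 74.4 in detrained mice. The detrained pair was the lower one, with a log2 ratio of -0.46 per kb and -0.48 per peak at nearly equal lengths of 7712 and 7635 bp. The other paired peaks of Dusp10 went both ways. Their log2 ratios per kb were 0.23 at 137 kb, 0.01 at 227 kb, -0.29 at 245 kb and -0.10 at 256 kb. On that scale the groups overlapped at 227 and 245 kb. The ratios per peak were 0.01, -0.08, -1.17 and 0.59 in the same order, with overlap at 137 and 227 kb. The peak at 245 kb was called shorter after detraining (1418 to 766 bp). The peak at 256 kb was called longer (2353 to 3810 bp). It was thus lower per kb but higher per peak in both detrained libraries.

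**Figure D2:**
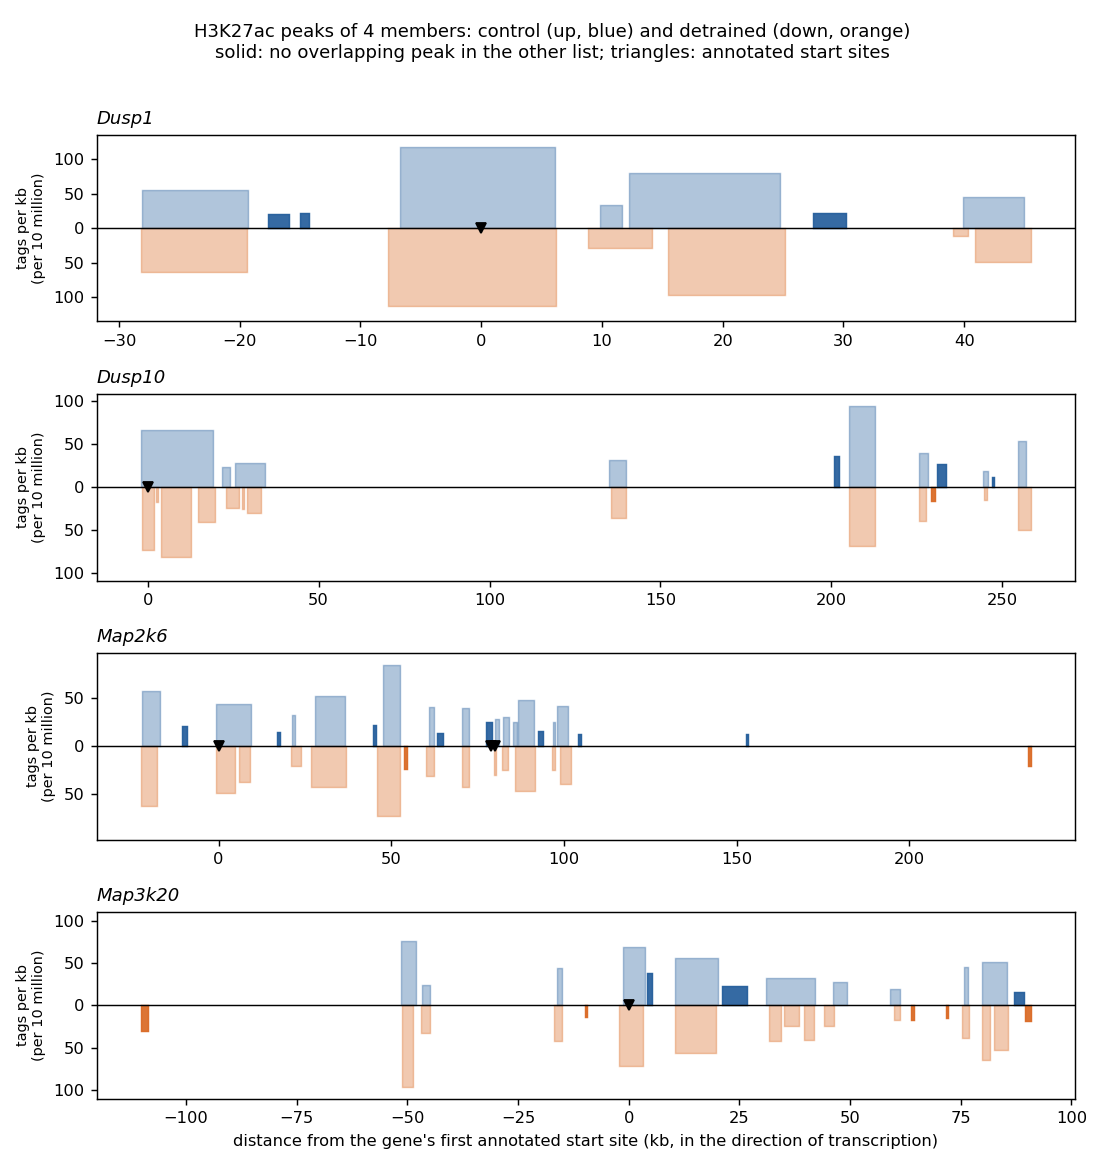
Density of each H3K27ac peak assigned to Dusp1, Dusp10, Map2k6 and Map3k20 (vertical, tags per kb per 10000000 tags, mean of 2 libraries; control upward, detrained downward) by distance from the first annotated start site (horizontal, kb), each bar as wide as its peak. Solid bars have no overlapping peak in the other list; the widest of them, in Map3k20, is 5684 bp.

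The comparison between groups rests on peaks that paired uniquely, each covering 50% or more of the other: 26432 pairs in all, of which 137 were nearest to a member in both lists. Over the 137 member peaks the library medians were 39.3 and 46 tags per kb in control and 42.0 and 38.8 in detrained mice, and those of the groups overlapped. On the log2 scale they were 5.41 ± 0.16 and 5.34 ± 0.08 (SD, n = 2). The median log2 ratio of detrained over control was -0.08, against -0.03 over all pairs, with member values from -0.88 to 0.84. With 2 libraries a group and lists normalized separately, no test was run on any peak, since an exact two-sided permutation test could not give a p below 0.333.

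The detrained pair lay wholly above the control pair in 25 of the 137 member peaks, or 18.2%, against 21.3% of all pairs. It lay wholly below in 45, or 32.8%, against 27.2% of all pairs. A peak was counted as changed when, in addition, the mean density differed at least 1.5-fold. By this rule 1 member peak was higher, against 1.1% of all pairs, and 4 were lower, against 2.06%. Per kb these shares are near the background. Per peak, a scale that moves with the called length, the same rule counted 10 member peaks higher, or 7.30%, against 5.51% of all pairs, and 14 lower, or 10.2%, against 5.08%.

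The 4 lower peaks were assigned to Map3k5, Map3k4, Map3k1 and Dusp22, and the higher one to Dusp18. The Map3k5 peak, 6.20 kb upstream of the gene for ASK1, a MAP3K of oxidative stress (chr10:19927485-19929172, intergenic), held 51.6 and 56.8 tags per kb in control and 30.0 and 29.1 in detrained mice. The groups did not overlap there, at 5.76 ± 0.10 and 4.88 ± 0.03 on the log2 scale (SD, n = 2). Control density was 1.83 times that of detrained mice, the largest fall per kb of all member pairs. These SDs rest on tags shared out by regularized values and may be too small. The called length hardly differed, at 1687 and 1719 bp, and the log2 ratio was -0.85 per peak and -0.88 per kb.

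At the other 4 peaks the called length differed between lists. The peak in an intron of Map3k4, 24.1 kb from the start of this stress-responsive MAP3K, held 45.6 and 55.1 against 31.8 and 26.4 tags per kb with a length of 3325 bp in control but 6070 bp in detrained mice. The intronic Map3k1 peak, 20015 bp from its start, held 35.9 and 48.5 against 27.6 and 24.3 and was 1081 and 1865 bp long. The Dusp22 peak, 454 bp from its start, held 75.9 and 71.4 against 52.4 and 44.4 and was 3412 and 6413 bp long. In tags per peak these 3 turned direction, with log2 ratios of 0.08, 0.10 and 0.30 in place of -0.79, -0.69 and -0.61.

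The Dusp18 promoter peak held 29.4 and 25.3 tags per kb in control and 55.2 and 43.1 in detrained mice, a log2 ratio of 0.84. Its called length was 2712 bp in control but 1700 bp in detrained mice, and in tags per peak its log2 ratio was 0.17 with overlapping groups. The next largest rises per kb were those of a Map3k5 intronic peak 71.3 kb from the start (24.5 and 23.3 against 31.1 and 36.8), the promoter of Dusp23 (69.6 and 82.2 against 113 and 101), a peak 52.3 kb upstream of Map4k3 (18.9 and 18.7 against 31.1 and 22) and the Dusp6 peak over its gene body (65.7 and 64.5 against 99.2 and 81.2). All 4 were called shorter in detrained mice, and in tags per peak their log2 ratios were -0.48, -0.18, -0.48 and -0.31. The next largest fall, in an intron of Map2k5 15.3 kb from its start (39.1 and 44.2 against 29.6 and 29.2), was -0.50 per kb and -0.17 per peak.

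**Figure D3:**
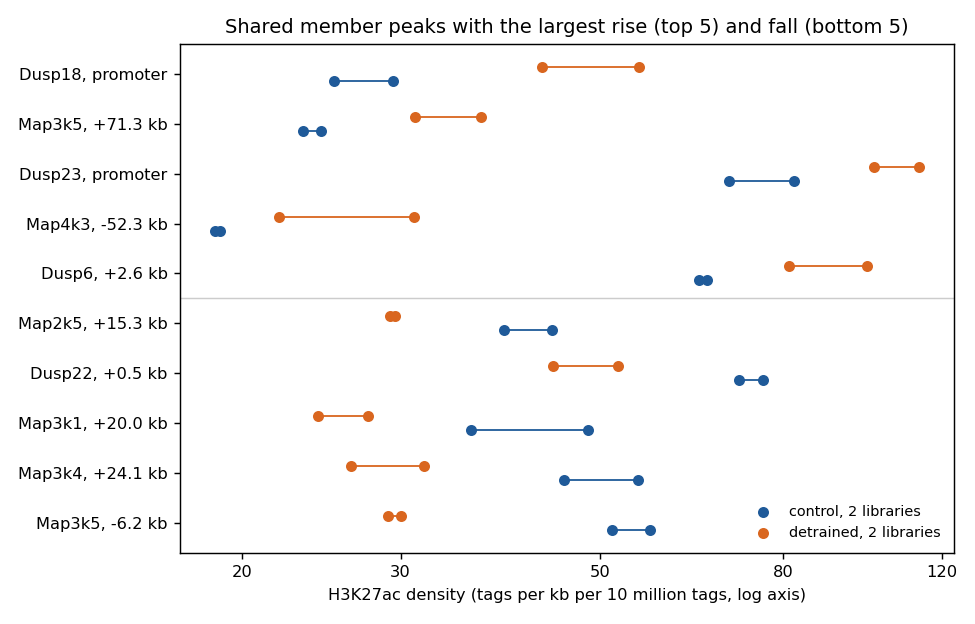
H3K27ac density of the 5 shared member peaks with the largest rise (upper) and the 5 with the largest fall (lower) in detrained over control mice (horizontal log axis, tags per kb per 10000000 tags), 1 point per library. The groups do not overlap in any of the 10, as the choice of extremes favours; the Map3k5 peak 6.20 kb upstream has the widest gap among the falls.

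Density and length were linked across peaks. The log2 ratio of density was lower where the log2 ratio of length was higher, with a Spearman correlation of -0.50 over the 137 member pairs and -0.53 over all 26432, in which every point shares the same 4 libraries and length enters both axes. For that reason peaks were also counted when they differed by a ratio of at least 5 to 4 in the same direction both per kb and per peak, with groups apart on both scales, a rule added after the data had been seen. By it 1 member peak was higher and 4 were lower, against 1.88% and 2.65% of all pairs, again near the background. The higher peak belonged to Map3k20 and the lower ones to Map3k5, Dusp10, Mapk4 and Dusp22.

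The Map3k20 peak lay 45.7 kb upstream of the start (chr2:72239034-72240744) and held 22.2 and 25.7 tags per kb in control and 34.2 and 31.4 in detrained mice, a log2 ratio of 0.46 per kb and 0.72 per peak. The Dusp22 peak, in an intron 37.6 kb from the start (chr13:30696173-30699080), held 33.7 and 29.2 against 23.8 and 23.3, a log2 ratio of -0.41 per kb and -0.73 per peak. The Mapk4 peak, annotated as intronic and 33.9 kb upstream of the nearest start of the gene for the atypical kinase ERK4, held 37.8 and 31.6 against 24.2 and 25.1, a log2 ratio of -0.49 per kb and -0.37 per peak. All 3 lay between percentiles 34 and 63 of their lists by density, whereas the far Dusp10 peak described above lay at 96 in control and 88 in detrained mice.

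The central 300 bases of the Map3k5 and Map3k20 peaks are shown as the peaks whose density and tags moved most in each direction by that rule. They are the plus strand of GRCm38.p6, at chr10:19928179-19928478 and chr2:72239740-72240039, with matches to the same motifs in capitals.
Map3k5 peak centre: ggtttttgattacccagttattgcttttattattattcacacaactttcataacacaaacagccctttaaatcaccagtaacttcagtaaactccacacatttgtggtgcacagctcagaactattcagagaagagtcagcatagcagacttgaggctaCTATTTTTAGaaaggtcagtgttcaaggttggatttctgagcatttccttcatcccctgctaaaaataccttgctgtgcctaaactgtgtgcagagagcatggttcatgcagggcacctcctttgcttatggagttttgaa
Map3k20 peak centre: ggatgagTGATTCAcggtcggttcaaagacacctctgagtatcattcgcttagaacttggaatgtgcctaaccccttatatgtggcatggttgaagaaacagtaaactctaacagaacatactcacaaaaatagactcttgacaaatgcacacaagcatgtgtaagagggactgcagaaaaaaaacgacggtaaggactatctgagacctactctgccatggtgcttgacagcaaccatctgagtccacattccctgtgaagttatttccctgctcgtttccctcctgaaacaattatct
The Map3k5 centre holds a MEF2 site, as did 16 of the 233 centres of control member peaks and 5.0% of all control peak centres. The Map3k20 centre holds TGATTCA, a match to the AP-1 pattern, which was found in 20 of 233 and 9.85%. The centres of the far Dusp10 peak and of the Dusp22 peak held none of the letters searched.

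**Figure D4:**
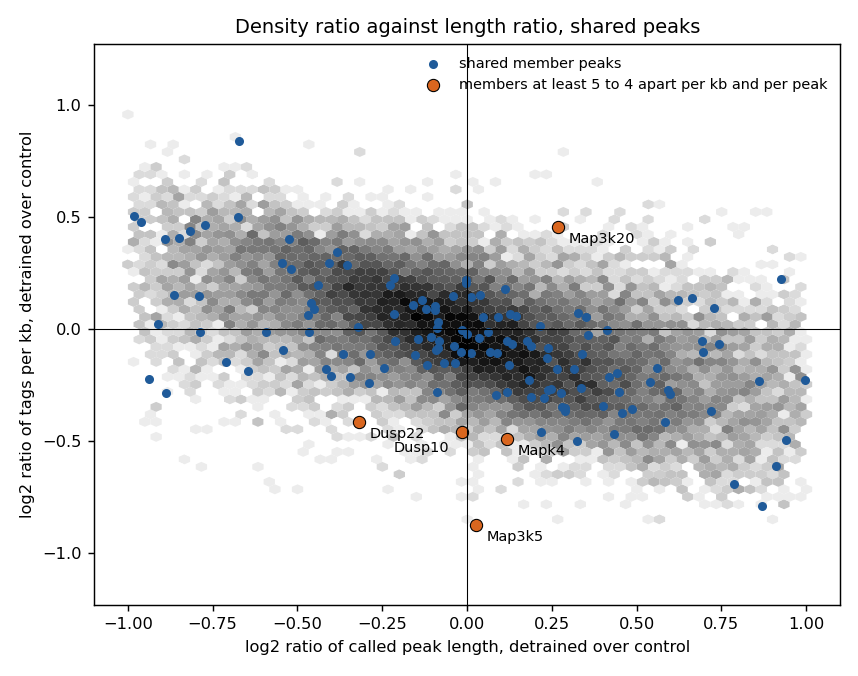
Log2 ratio of tags per kb (vertical) against log2 ratio of called peak length (horizontal), detrained over control, for all shared peaks (grey, darker where denser) and the 137 member pairs (blue). The 5 members at least 5 to 4 apart on both scales (orange) are named, and Map3k5 is the lowest member.

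By role, the MAP2K peaks leaned lowest per kb and the MAP4K peaks highest among the roles with 10 or more pairs. The median log2 ratio was -0.20 over 23 MAP2K pairs, in which both detrained libraries were below both control libraries in 13 and above in 1. In tags per peak it was -0.08, with 9 below and 5 above. Over all pairs 27.2% were below and 21.3% above per kb, and 28.8% and 24.7% per peak. Over 10 MAP4K pairs the median was 0.09 per kb, with 4 above and none below, and 0.10 per peak, with 3 above and 2 below. The pairs of these 2 roles come from at most 7 MAP2K and 5 MAP4K genes. Many lie near Map2k6 and Map4k3, and they are not independent of one another. MAP3K pairs were centred near 0, with a median of -0.01 over 32, and typical MKP and atypical phosphatase pairs had medians of -0.10 over 25 and -0.11 over 22. The 84 kinase pairs and 47 phosphatase pairs had medians of -0.06 and -0.10. Median ratios of the roles with fewer pairs were -0.16 over 8 ERK pairs, 0.18 over 3 JNK, -0.11 over 4 p38, -0.28 over 4 MAPKAPK and 0.27 over 3 scaffold pairs. The MAPKAPK ratios were below 0 in 4 of 4 pairs per kb and 3 of 4 per peak, with groups that did not overlap in all 4 per kb. Per peak they did not overlap in 2, of which Mapkapk5 was lower and Mapkapk2, at 36 kb from its start, higher with a log2 ratio of 0.17. Per peak the signs of several medians turned: p38 to 0.16, JNK to -0.12, scaffolds to -0.13 and typical MKP to 0.01. The atypical phosphatase median was -0.17 per peak, with 12 below and 2 above, and thus lower than that of MAP2K on this scale.

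**Figure D5:**
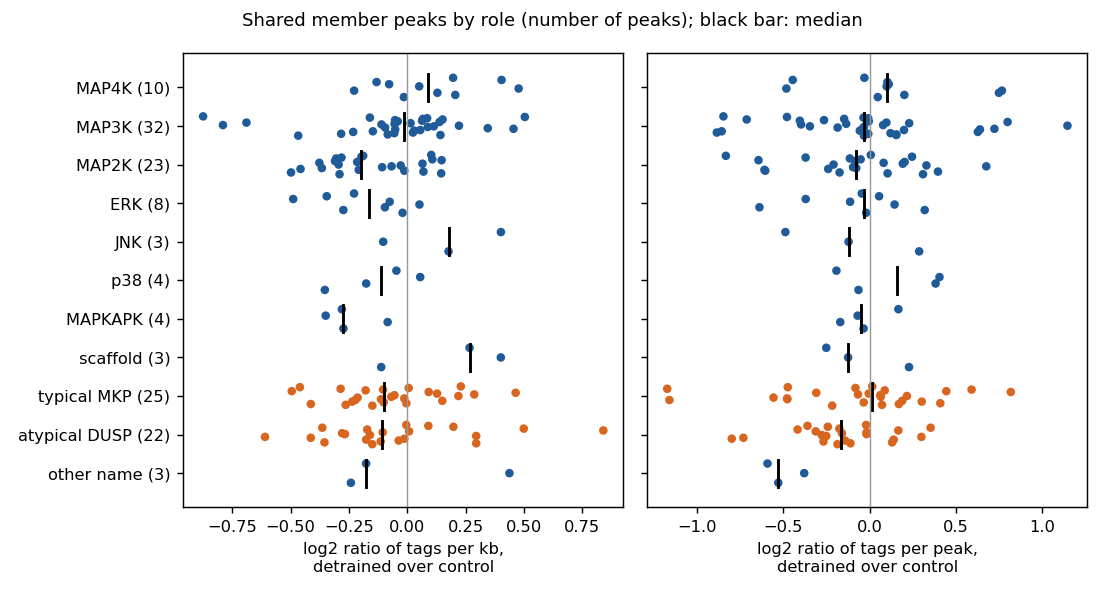
Log2 ratio of detrained over control for each of the 137 shared member peaks, grouped by role, in tags per kb (left) and tags per peak (right); black bars are medians, kinases and scaffolds are blue and phosphatases orange. The MAP2K median is -0.20 on the left and -0.08 on the right, and points spread more widely per peak than per kb.

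Peaks listed in 1 group alone made up a share of the members near that of all peaks. In control mice 57 of 233 member peaks, or 24.5%, overlapped no detrained peak, against 27.9% of all control peaks, and in detrained mice 27 of 207, or 13.0%, overlapped no control peak, against 18% of all. Among peaks of at least 30 tags per 10000000 the shares were 7.74% of control members against 7.32% of all, so that the order turned, and 3.27% against 5.46% in detrained mice. None was at a promoter, where 360 of all 13104 such control peaks and 267 of all 7313 such detrained peaks lay, a share near that of the members. The members' peaks were weak, with a median of 16.3 pooled tags in control against 100 in the other member peaks, and of 16 against 90.6 in detrained mice. The files hold tags only for their own peaks, and no density can be given for the other group at such places.

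The strongest control peak without a counterpart lay in the second intron of Map3k20, 23.8 kb from the start and 5684 bp long, with 127 and 132 tags. Next were an intergenic peak 232 kb from the start of Dusp10, with 74.2 and 65.8 tags, and one 28.8 kb downstream of Dusp1, with 59.7 and 56.1. In detrained mice the strongest lay 71.7 kb downstream of the start of Map3k7cl, with 56.1 and 41.8 tags, 109 kb upstream of Map3k20, with 52.8 and 36.8, and in an intron of Map3k8, 9.53 kb from its start, with 48.2 and 33.9. Map3k20 had 3 such peaks in the control list and 5 in the detrained list.

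When overlapping peaks of both lists were merged and their tags summed, which avoids the division by length but follows how much was called, 163 member loci had peaks in both groups. Of these, 15 were higher in detrained mice by 1.5-fold or more, against 10.2% of all 31776 such loci, and 19 lower, against 7.96%. The locus with the largest ratio was in Map4k3, with 13.3 and 14.7 tags over 662 bp in control and 45.1 and 48.4 over 1830 bp in detrained mice. A second Map4k3 locus had 56.9 and 69.9 tags over 3001 bp against 172 and 120 over 6393 bp. In all, Map4k3 held 4 of the 15 higher loci, and at each the called length was greater in detrained mice. The largest fall was at Map3k7, the gene for TAK1, with 33.5 and 39.8 tags over 1166 bp against 15.1 and 11.9 over 628 bp.

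Nearest-gene labels also moved between lists in 3 shared pairs. The pair labelled Map3k4 in control and 4732491K20Rik in detrained mice held 92.2 and 88.8 tags per kb in control and 75.1 and 70.5 in detrained mice, the latter pair being lower. The pair labelled Map4k5 and then Atl1 held 66.5 and 59.8 against 101 and 92.7 at lengths of 3352 and 1792 bp, and the pair labelled Eif3k and Map4k1 held 59.3 and 63.1 against 54.7 and 55.3. These 3 were left out of the 137, although the Map4k5 and Atl1 pair met the 1.5-fold rule, with a log2 ratio of 0.62 per kb and -0.29 per peak, and would have been a second higher peak.

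Of 50 other genes that feed into or out of the cascade (Ras, Raf and their regulators, growth factor receptors, other kinases and the transcription factors at the end), 47 had a peak in control and 49 in detrained mice. Among their 135 shared pairs the median log2 ratio was -0.03, and the detrained pair lay wholly above the control pair in 25 and wholly below in 37, where 21.3% and 27.2% of all pairs did so. By the rule on both scales 3 were higher, near Gadd45g and Grb2, against 1.88% of all pairs. By that rule 3 were lower, near Egfr, Rps6ka5 and Gadd45b, against 2.65%. By the 1.5-fold rule 2 were higher and 1 lower, against 1.1% and 2.06% of all. The higher pair were a peak 23.9 kb downstream of Gadd45g, a stress-induced activator of MAP3K4 (47.1 and 44.2 against 79.9 and 91.3 tags per kb), and one 29.8 kb upstream of Spry4, an inhibitor of receptor signalling (44.0 and 43.5 against 70.0 and 66.2). The lower was 115 kb upstream of Egfr (55.7 and 46 against 25 and 30.8). In tags per peak the log2 ratios were -0.01 for the Gadd45g peak, -0.32 for Spry4 and -0.34 for Egfr, in place of 0.91, 0.64 and -0.87 per kb.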

How the data were processed

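H3K27ac ChIP-seq was compared between quadriceps of 2 control and 2 detrained mice, with 1 input a group. The authors aligned single-end reads to mm10 with Bowtie (version 1.2 in the submitters' processing notes) and called peaks with HOMER on the pooled H3K27ac libraries of each group against its input. Each of the 2 deposited lists gives, per peak, the pooled signal in tags per 10000000 and, per library, a regularized log2 value normalized within that list; their fold change, p-value and adjusted p columns are the authors' comparison of H3K27ac with input and were not used.

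Members were taken by nearest-gene symbol. The pooled tags of a peak were shared between its 2 libraries in proportion to library size and the deposited log2 values, and 0.5 tags were added before the log. These per-library tags are estimates. Because the log2 values are regularized, the spread between libraries of a group may be too small and groups may lie apart too often. Totals of the libraries, from the file headers, were 20805019 to 22400894 tags. Peaks of the lists were paired one-to-one where at least 50% of each was covered, and a pair was counted when the mean density differed at least 1.5-fold and the groups did not overlap. No test was run: each list was normalized alone, and 2 against 2 libraries allow no exact permutation p below 0.333. Gene values were printed for the 3 genes of each role with the most control tags, the 5 largest rises and 5 largest falls, the 3 strongest peaks listed alone in each group, and Dusp1, Dusp10, Mapk14 and Mapk12; other named peaks were chosen after their values were seen, and 1 gene of that rule is not reported here. The members and lists were chosen with earlier results of these data known. Alternatives covered scale, pairing, tags added, weak peaks and each library left out. Motifs were searched on both strands of RefSeq promoter windows, which 54 of the 66 member genes have, and of 300 bases at peak centres read from GRCm38.p6. All 75 member windows equalled the genome sequence, and 52 of 54 genes had their annotated start within 100 bp of a RefSeq start. Scripts ran in Python (3.11.15) with pandas (2.3.3), numpy (2.4.6), pysam (0.24.0) and scipy (1.17.1), and the steps were tested on simulated data.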

Additional observations from a re-analysis of the deposited data

How the results depend on the processing

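The median log2 ratio over shared member peaks, -0.08, stayed below 0 under every alternative run, but it is smaller than the spread between medians of replicate libraries (SD 0.13) and 1 library could move it by over 1.5 times: it was -0.02 without Ex2, -0.03 without C3, -0.10 without Ex1 and -0.11 without C2, and -0.03 when normalized to the tags in listed peaks. Under that last scaling the median of all pairs turned to 0.02. By the 1.5-fold rule it gave 1 higher and 3 lower member peaks, against 1.69% and 1.45% of all pairs. The count of 5 peaks at least 1.5-fold apart depended on the rule: it was 24 in tags per peak (17.5% of members against 10.6% of all pairs), 1 where at least 80% of each peak had to be covered (1.64% against 0.908%), 0 at 2-fold (0.0757% of all), 29 at a ratio of 5 to 4 (21.2% against 20.1%), and, by alternatives chosen after seeing the data, 1 among peaks of like length (1.41% against 1.23%) and 34 over merged loci (20.9% against 18.2%). Leaving out 1 library at a time gave 6 to 8, with 8 without control library C3 or detrained library Ex2, while the share of all pairs went from 3.16% to between 4.46% without Ex1 and 5.69% without C2. The Dusp22 peak fell short of 1.5-fold without C2 (log2 ratio -0.57), without Ex2 (-0.49) and when normalized to the tags in listed peaks (-0.56). The Map3k1 peak fell short without C3 (-0.47). The falls at Map3k4, Map3k1 and Dusp22 turned to 0.078, 0.10 and 0.30 in tags per peak, as their detrained peaks were called longer. With at least 30 tags per 10000000, 155 control member peaks were left, and peaks listed alone made up 7.74% of control and 3.27% of detrained member peaks, against 7.32% and 5.46% of all such peaks, which shows that weak peaks supply most of them. The median member density exceeded that of all peaks by 0.18 log2 units in control and 0.12 in detrained mice per kb, and by 0.35 in each per peak. No paired analysis was run, as the labels name no pairs of mice. The control columns, C2 and C3, do not carry the numbers of the control sample titles, and were matched to the control group only. The detrained columns, Ex1 and Ex2, match their titles. No result comes from a test. The group comparison rests on 2 libraries a group, on tags shared out from pooled values, and on peak borders called separately in each group. Inputs differed in depth, 10812470 and 21298438 tags, and their part in the borders was not tested.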
